A study of Homo sapiens with 9 samples.

Results

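The 2 RNA-sequencing libraries made from 10 HAP1 cells each were compared with the 4 libraries made from 100 and 1000 cells of the same line. These 6 of the 9 libraries of the series were chosen by their labelled cell number, and the 3 single-cell libraries were left out. HAP1 is a near-haploid human line that grows attached to its dish and descends from KBM-7 cells, a line of chronic myeloid leukaemia. All cells were wild type, untreated, and sorted with a flow sorter straight into lysis buffer. Total RNA was bound to NAxtra magnetic beads, treated with DNase, cleaned on the beads again and turned into libraries with the SMART-Seq Stranded Kit, so the labels differ between groups only in the number of cells. The labels give 1 DNase volume for all libraries, whereas the study's general methods give a larger one for 1000 cells than for 10 and 100, so a difference in DNase between the 1000-cell libraries and the rest cannot be told apart from cell number. There were 2 libraries of 10 cells, 2 of 100 cells and 2 of 1000 cells. They are called biological replicates in the labels, but whether they came from separate cultures is not given, so all p-values measure the spread between these libraries only.

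An RNA library from few cells has to be built from few starting molecules. Reverse transcription catches only part of them, and PCR then copies what was caught, so a scarce transcript can be missed or over-counted by chance, while an abundant one is sampled many times. A handful of cells also holds their own mix of cell-cycle stages, which a larger pool averages out. In libraries such as these, fewer cells of a kind and less RNA per cell cannot be told apart.

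The totals of counts assigned to genes ranged from 42842970 to 61645865, and the 10-cell libraries held 43174040 and 49148341, so depth did not separate the groups. Levels are given as CPM, counts per 1000000 counts after TMM scaling of library sizes. CPM are not divided by gene length and compare the same gene between libraries, not genes with each other. The HAP1 label was looked at through genes this line is known for. POU5F1 was at 481 and 415 CPM in the 10-cell libraries and between 398 and 518 in the others, LIN28B between 200.0 and 228 in all 6, BCR between 20.5 and 26.0, ABL1 between 12.5 and 15.6, and SALL4 was low, between 0.695 and 1.64. Of the marker lists for other cells, 10 of 16 keratinocyte genes and 9 of 21 myeloid and erythroid genes had 0 counts in all 6 libraries, and the summed levels were between 8.82 and 13.6 CPM for the first list. The myeloid and erythroid list summed to 64.1 and 68.9 CPM in the 10-cell libraries and to between 52.5 and 61.5 in the other 4, of which GATA2, a transcription factor of blood progenitors, made up 56.1 and 58.8 and between 45.5 and 53.8 CPM. Plasma cell genes summed to between 47.0 and 55.1 CPM, and fibroblast genes, which include the widely expressed VIM, to 939 and 946 CPM in the 10-cell libraries and between 953 and 1095 in the others. The part of these lists in the results below was not tested.

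One of the 4 larger libraries stood apart before any gene was compared. Replicate 1 of 100 cells held 16474 genes with at least 1 count, whereas replicate 2 of 100 cells held 18368 and the 1000-cell libraries 18232 and 18634. On the log2 CPM scale its median absolute distance from the mean of the 1000-cell libraries was 0.215 over 15926 genes, the same as for the 10-cell libraries (0.215 and 0.208) and above the 0.0859 of replicate 2 of 100 cells. The comparisons that hold it are also given without it, which for the main comparison was planned. Whether that plan was made without knowledge of these values is not given. Leaving out a library that stands apart also lowers the spread among the larger libraries, which enters the test.

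In the 10-cell libraries, 16283 and 16552 genes had at least 1 count. Their mean was 16418 ± 190.2 (SD, n = 2) against 17927 ± 983 (n = 4) in the larger libraries, so that the 10-cell mean minus the other was -1509.5 genes (exact two-sided permutation test over the 15 choices of 2 libraries, p = 0.267, where 0.0667 is the smallest p this design allows). Without replicate 1 of 100 cells the larger libraries held 18411 ± 204 genes (n = 3), and no 10-cell library reached the lowest of them. The gap remained at equal depth. With all libraries thinned to the smallest total, the 10-cell libraries held 16283 and 16519 genes, and the larger ones held 16428, 18237, 18232 and 18378. Among genes at 1 CPM or more the groups were nearly level, with 13406 and 13407 genes in the 10-cell libraries and between 13306 and 13368 in the other 4.

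**Figure D1:**
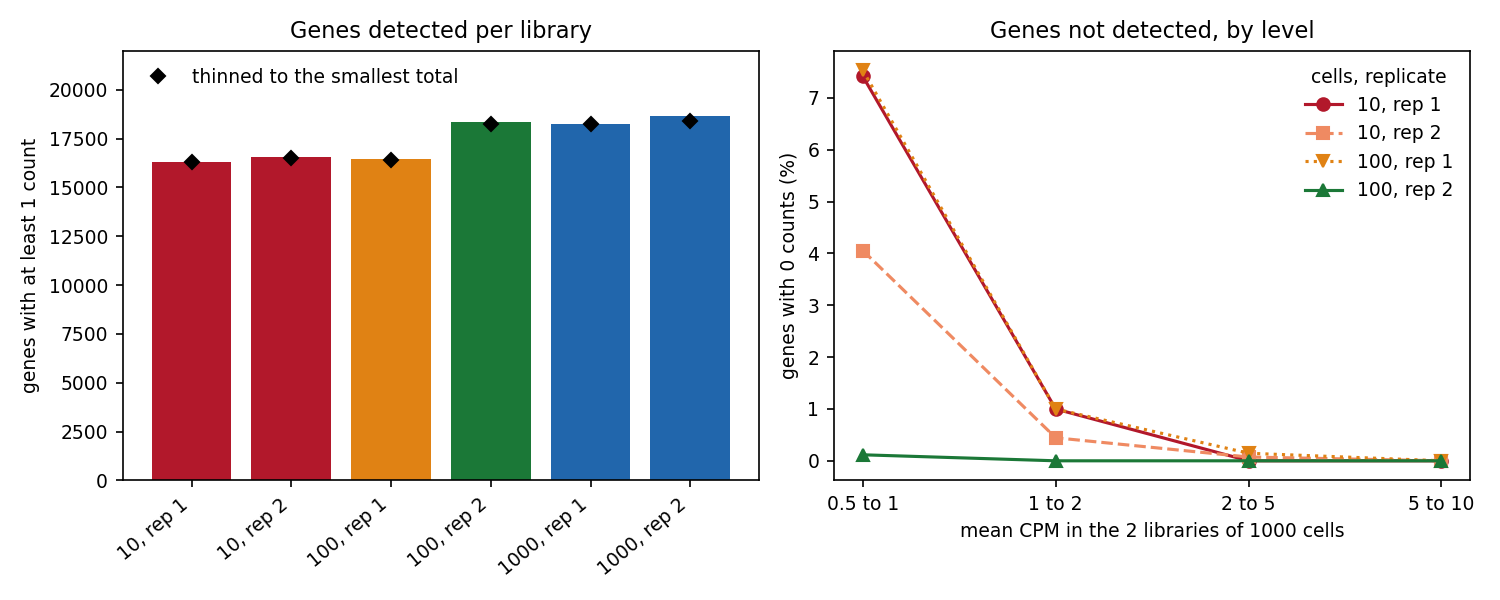
Left, genes with at least 1 count in each library (bars) and after thinning to the smallest total (diamonds), where the 10-cell libraries and replicate 1 of 100 cells lie between 16283 and 16552 and the other 3 lie between 18232 and 18634. Right, the percentage of genes with 0 counts in each of 4 libraries (y axis) by their mean CPM in the 1000-cell libraries (x axis), which is at most 7.53% in the lowest class shown and below 1% from 1 CPM upwards.

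What was missing was scarce. Of 863 genes between 0.5 and 1 CPM in the 1000-cell libraries, 7.42% and 4.06% had 0 counts in the 10-cell libraries, 7.53% in replicate 1 of 100 cells and 0.116% in replicate 2. Between 1 and 2 CPM (901 genes) the shares were 0.999%, 0.444%, 0.999% and 0. From 5 CPM upwards no gene had 0 counts in any of these 4 libraries. Of the 863 genes, 5 were at 0 in both 10-cell libraries, of the 64 and 35 that were at 0 in either. No gene at 1 CPM or more in replicate 2 of 100 cells and both 1000-cell libraries was at 0 in both 10-cell libraries, and no gene at 1 CPM or more in both 10-cell libraries was at 0 in those 3.

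The level of the genes that were detected also varied more between the 10-cell than between the 1000-cell libraries. The SD between replicates, as a median over 15926 genes on the log2 CPM scale, was 0.175 for 10 cells, 0.157 for 100 cells and 0.0709 for 1000 cells. Replicate 2 of 100 cells and replicate 1 of 1000 cells, which differ in cell number, had a median SD of 0.0721, close to that of the 1000-cell pair. The spread narrowed with level in each pair of replicates. For the 10-cell pair it was 1.05 below 1 CPM, 0.134 between 10 and 100 CPM, 0.0685 between 100 and 1000 CPM and 0.0426 for the 65 genes above 1000 CPM. For the 1000-cell pair the values were 0.397, 0.0528, 0.0263 and 0.0207. Above 100 CPM the 10-cell pair was no wider than the 100-cell pair, which had 0.0703 between 100 and 1000 CPM and 0.0537 above. Between 10 and 100 CPM, 52 of 7407 genes differed by more than 1 (log2) between the 10-cell libraries, against 1 between the 1000-cell libraries.

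**Figure D2:**
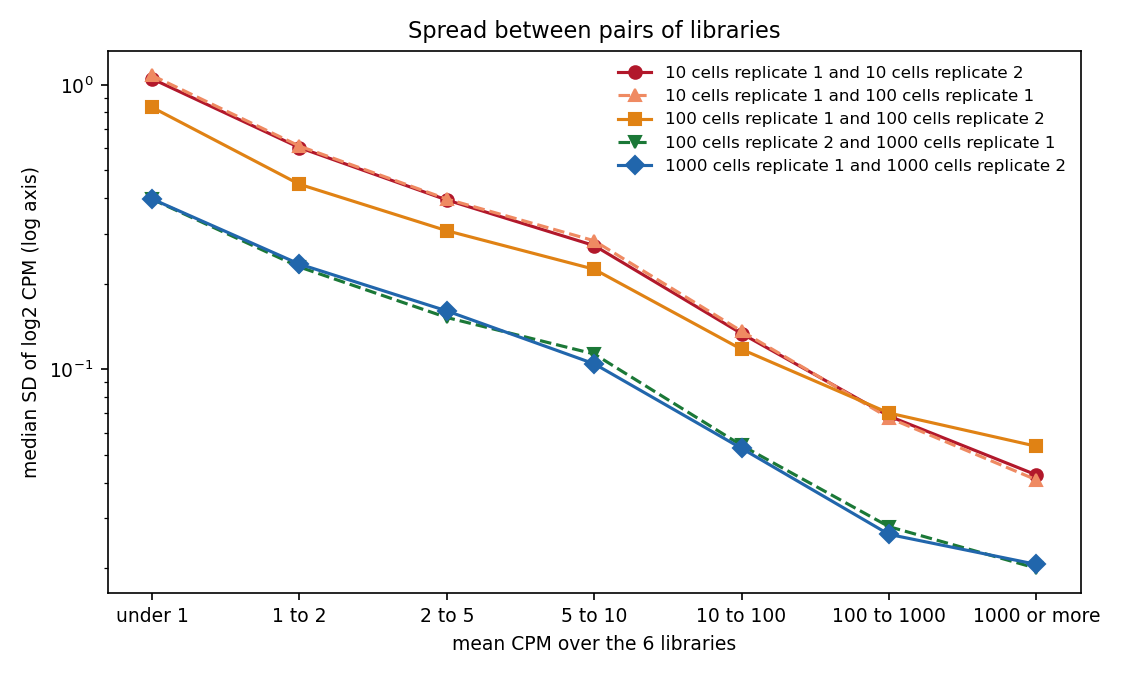
Median SD of log2 CPM between 2 libraries (y axis, log scale) by mean CPM over the 6 libraries (x axis), for 5 pairs of libraries. Pairs that include a 10-cell library or replicate 1 of 100 cells lie between 0.447 and 0.609 at 1 to 2 CPM, and the 2 pairs among the other 3 libraries lie lower at every level, at 0.229 and 0.234 there.

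Genes at 10 CPM or more that differed most between the 10-cell libraries were named for that difference, and their values are a description. PI15, a secreted protease inhibitor, was at 5.28 CPM in replicate 1 and 23.8 in replicate 2 of 10 cells, and at 7.11 in replicate 1 of 100 cells. Its level in the remaining 3 libraries, 17.9, 15.5 and 17.6 CPM, lay between the 10-cell values. THBS1, a secreted matrix glycoprotein, was at 16.9 and 43.2 CPM in the 10-cell libraries and at between 25.2 and 33.4 in the others, so that the 10-cell values lay on both sides of all 4. YIPF2, a membrane protein of the Golgi, was at 18.1 and 6.46 CPM, with the others between 10.5 and 16.0. TSPAN12 (13.8 and 5.03 CPM, others 10.7 to 13.4) and the growth factor receptor gene ERBB3 (17.2 and 7.38 CPM, others 10.4 to 12.8) were higher in replicate 1. GSKIP (5.83 and 14.6 CPM, others 10.2 to 14.7) was higher in replicate 2. With 1 library against 1 these are values with no test.

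Against the 100- and 1000-cell libraries together, 3 of 15926 genes passed the test in the 10-cell libraries. TUBB4A and RMRP rose, and RPS27 fell. TUBB4A encodes a beta-tubulin best known from neurons and oligodendrocytes, RMRP is the RNA of the RNase MRP complex that trims precursor ribosomal RNA and mitochondrial primers, and RPS27 encodes a zinc finger protein of the small ribosomal subunit. The test was edgeR's quasi-likelihood test with Benjamini-Hochberg adjusted p below 0.05, and 0.0188% of genes were called, 0.0126% higher and 0.00628% lower. At an unadjusted p below 0.05 there were 2255 genes (14.2%), and the 2 groups did not overlap in 3691 genes (23.2%). DESeq2 called 111 genes higher and 155 lower.

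TUBB4A (hg38 chromosome 19, 6494319 to 6502848, all exons of the gene model counted together, 2722 bases) was at 184 and 173 CPM in the 10-cell libraries and at 110.1, 106, 118 and 114 CPM in the 2 libraries of 100 and the 2 of 1000 cells. The groups did not overlap, and the mean of the 10-cell libraries was 1.59 times that of the others. The log2 fold change was 0.67 ± 0.07 (SE, adjusted p = 0.00301), and 0.66 ± 0.06 without replicate 1 of 100 cells (adjusted p = 0.0019). The tubulin genes share long stretches of coding sequence, and reads that map to several places were left out of the counts, so its absolute level is uncertain.

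RMRP (chromosome 9, 35657751 to 35658018, a single exon of 268 bases that encodes no protein) was at 2505 and 2327 CPM with 10 cells. With more cells it was at 1938, 1910.2, 1842 and 1839.8 CPM, a narrower range that ended below the lower 10-cell library. The 10-cell mean was 1.28 times the other. On the log2 scale the difference was 0.36 ± 0.04 (adjusted p = 0.013), and it was 0.37 ± 0.04 without replicate 1 of 100 cells (adjusted p = 0.00352). Its sequence is shown whole because RMRP was, with all 6 libraries, the only called gene without a coding region, and at 63.2% GC over its annotated transcripts it is one of the GC-rich RNAs described further on. It is given 5′ to 3′ as in the GENCODE transcripts for GRCh38, with no part marked.
RMRP: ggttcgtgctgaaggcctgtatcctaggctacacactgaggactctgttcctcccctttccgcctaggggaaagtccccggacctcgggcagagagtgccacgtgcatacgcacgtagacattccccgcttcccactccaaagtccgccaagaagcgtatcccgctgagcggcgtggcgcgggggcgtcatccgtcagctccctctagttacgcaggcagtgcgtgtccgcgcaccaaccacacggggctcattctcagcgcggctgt

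RPS27 (chromosome 1, 153990763 to 153992155, 351 bases of exon) was at 72.9 and 60.4 CPM with 10 cells and at 129, 171, 167 and 150.1 CPM with more. It had the largest distance of the 3 genes, with a mean of 0.432 times that of the larger libraries. The log2 fold change was -1.21 ± 0.12 (adjusted p = 0.00301), and -1.29 ± 0.09 without replicate 1 of 100 cells (adjusted p = 0.00119). Like most ribosomal protein genes, RPS27 has processed pseudogenes elsewhere in the genome, and the reads it shares with them were not counted. Replicate 1 of 100 cells had the lowest RPS27 level of the 4 larger libraries. All 3 calls were lost when replicate 1 of 10 cells was left out (lowest adjusted p = 0.0553), and the RPS27 call also without replicate 2 of 10 cells (adjusted p = 0.112), with 1 library then standing for the group. The RMRP call was also lost without replicate 2 of 100 cells (adjusted p = 0.0621), replicate 1 of 1000 cells (0.0526) or replicate 2 of 1000 cells (0.117), whereas TUBB4A was lost only without replicate 1 of 10 cells among the 6 libraries left out in turn. In a fit of a trend over the log10 cell number, no gene was called (lowest adjusted p = 0.282; 1434 genes at an unadjusted p below 0.05).

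**Figure D3:**
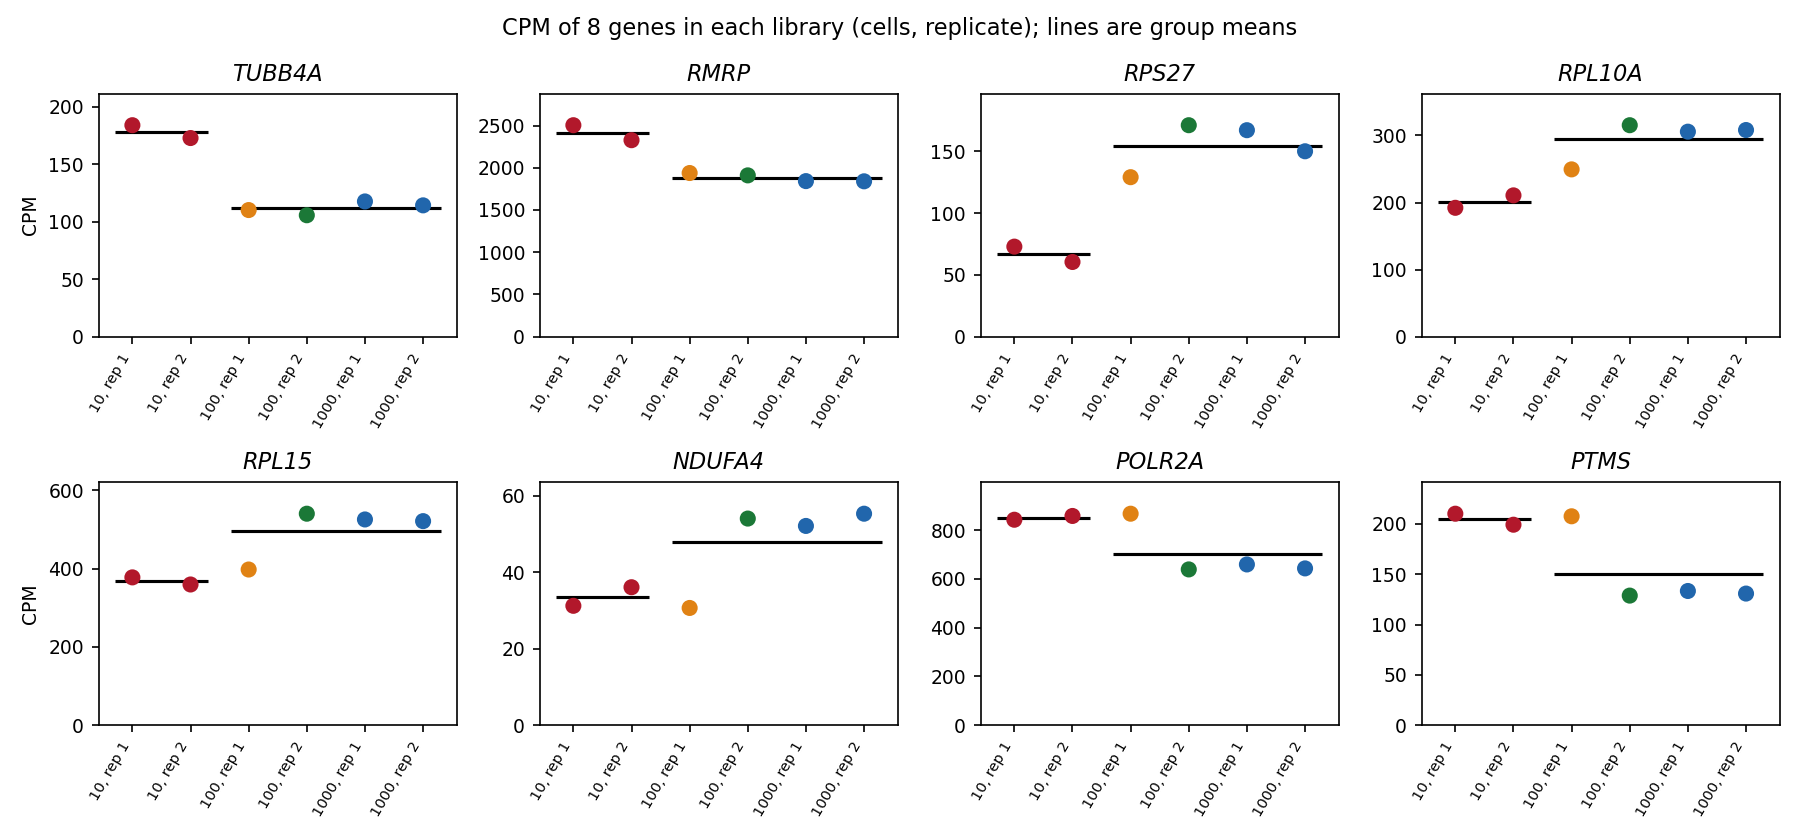
CPM (y axis, from 0) of 8 genes in the 6 libraries, with the cell number and replicate on the x axis and lines at the means of the 10-cell and of the larger libraries. TUBB4A, RMRP and RPS27 separate the 2 groups, whereas for RPL15, NDUFA4, POLR2A and PTMS replicate 1 of 100 cells lies at or near the 10-cell libraries. The former were called with that library included and the latter only without it, so this contrast follows in part from the choice of genes.

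Compared with each larger cell number alone, 10 cells gave similarly few calls. Against 100 cells, 5 of 15473 genes passed (0.0323%, with 0.0259% higher and 0.00646% lower), and 823 had an unadjusted p below 0.05 (5.32%). RPS27 fell and TUBB4A rose again, and MUC4, ZNF208 and AMBN rose. MUC4, a membrane mucin, was at 24.4 and 29.9 CPM in the 10-cell and 9.18 and 9.55 in the 100-cell libraries. ZNF208, a zinc finger gene, was at 84.5 and 91.5 CPM against 30.4 and 53.6, and AMBN, which encodes an enamel matrix protein and was named after its values were seen, at 67.8 and 75.4 against 35.1 and 39.2. The MUC4 gene model counted here joins more than 1 placement on chromosome 3, so its place and length are not given. In the 1000-cell libraries these 3 genes lay between the 2 groups, with MUC4 at 16.2 and 12.2, ZNF208 at 74.3 and 67.2, and AMBN at 52.8 and 54.5 CPM. When replicate 1 of 100 cells was left out, 1 gene was higher and 5 lower, and 1 of the 4 rises and the RPS27 fall were kept.

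Against 1000 cells, 5 of 15449 genes passed (0.0324%, with 0.0129% higher and 0.0194% lower), and 1909 had an unadjusted p below 0.05 (12.4%). RPS27, RPL15 and RPL10A fell, and PTMS and TUBB4A rose. These 2 comparisons share the 10-cell libraries. Between 100 and 1000 cells none of 15597 genes passed in edgeR's test (0%; smallest adjusted p = 0.204), with 398 genes at an unadjusted p below 0.05 (2.55%), while DESeq2 called 1. With replicate 1 of 100 cells left out, 7 genes were higher and 5 lower with 100 cells. The few calls against 1000 cells were lost with edgeR's older quasi-likelihood setting (smallest adjusted p = 0.0758, 1735 genes at an unadjusted p below 0.05), and DESeq2 called 196 genes there.

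Without replicate 1 of 100 cells the picture of the 10-cell libraries widened. Of 15771 genes, 148 rose (0.938%) and 157 fell (0.995%), 305 in all (1.93%), and 3330 had an unadjusted p below 0.05 (21.1%). The 3 genes called with all 6 libraries were among them. Called were 127 of the 2294 genes tested between 100 and 1000 CPM, 140 of 7407 between 10 and 100 CPM and 12 of 65 above 1000 CPM. The rest of the 305 lay below 10 CPM. These calls rest on each of the 3 larger libraries. Leaving out replicate 2 of 100 cells, replicate 1 or replicate 2 of 1000 cells left 2, 4 and 5 genes higher and 3, 5 and 4 lower. Without replicate 1 or replicate 2 of 10 cells all 305 calls were kept and the counts rose to 2440 and 2387 higher and 2371 and 2448 lower, with the lone 10-cell library assumed to vary like the 3 larger ones. The 3 larger libraries also varied less among themselves than the 10-cell pair, while the test uses one spread per gene for both groups. With limma-voom and a weight for each group, 94 genes were higher and 84 lower.

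Among genes above 100 CPM that rose were POLR2A, the catalytic subunit of RNA polymerase II, and PTMS, the gene of the acidic nuclear protein parathymosin. POLR2A was at 842 and 858 CPM with 10 cells and at 638, 659 and 643 in the 3 larger libraries used (log2 fold change 0.39 ± 0.03, adjusted p = 0.0016). In the library left out it was at 867 CPM, just above the higher 10-cell library. PTMS was at 210.2 and 199 CPM against 129, 133 and 131 (0.64 ± 0.05, adjusted p = 0.00119), and at 208 in the library left out.

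PPDPF (159 and 126 CPM against 87.7, 90.9 and 93.6) and the nuclear corepressor gene ATN1 (281 and 250.4 against 184, 186 and 194) rose by 0.65 ± 0.09 and 0.50 ± 0.06. Both were in the 10-cell range in the library left out, at 153 and 289 CPM, or just above it. FAM65A, at 166 and 169 CPM against 112, 117 and 115, rose by 0.55 ± 0.05 (adjusted p = 0.0019) and was at 150.1 in the library left out. HCFC1, a chromatin-bound cofactor, and KMT2E, a protein of the lysine methyltransferase family, rose by 0.29 ± 0.05 and 0.34 ± 0.07. TUBB4A and RMRP were at 110.1 and 1938 CPM in replicate 1 of 100 cells, close to the larger libraries. They were called with that library included and the genes above only without it, so this contrast follows in part from how they were named. The level of TPTEP1, a transcribed pseudogene, was also close to the larger libraries there. It was at 62.9 and 65.6 CPM with 10 cells and between 44.4 and 46.6 in all 4 others (0.50 ± 0.07 without that replicate, adjusted p = 0.0148, and 0.50 ± 0.08 with it, adjusted p = 0.10).

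Some scarce genes had larger fitted rises. MLF1, a gene first known from a fusion in myeloid leukaemia, was at 2.01 and 1.08 CPM with 10 cells and between 0.0389 and 0.247 in all 4 larger libraries. TLR2, an innate immune receptor, was at 0.694 and 0.716 CPM, and at 0, 0.038, 0 and 0.0969 in the larger libraries. At these levels each call turns on few molecules, and neither gene passed with all 6 libraries (adjusted p = 0.10 and 0.199).

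The largest fitted falls among called genes were of TKTL1, HIST1H3C and AMPD3. TKTL1, a transketolase-like gene, was at 0.185 and 0.143 CPM with 10 cells, at 0 in replicate 1 of 100 cells, and between 1.64 and 3.33 CPM in the other 3. It was 1 of 4 genes at 1 CPM or more in those 3 libraries with no count in replicate 1 of 100 cells. MGMT, the gene that repairs alkylated guanine, fell by 1.21 ± 0.22 (3.59 and 3.58 CPM against 9.41, 8.05 and 7.52, and 7.11 in the library left out). GGH, a lysosomal folate hydrolase, and COX7A2L, an assembly factor of respiratory complexes, were at 58.7 and 60.3 and at 37.2 and 38.9 CPM. Both were higher in all 4 larger libraries, between 79.7 and 89.6 and between 53.6 and 59.3 CPM, and both fell without replicate 1 of 100 cells (adjusted p = 0.0083 and 0.0127) but did not pass with it (0.10 each).

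The cytosolic ribosomal proteins, which make up the 2 subunits of the ribosome, held 25 of the 157 falls found without replicate 1 of 100 cells. Of 79 genes tested with all 6 libraries, 1 fell and 69 had a log2 fold change below 0, with a median of -0.13 beside 0.0011 over all genes. Their summed level was 36389 and 35132 CPM with 10 cells and 36140, 39951, 38404 and 39461 with more, so that replicate 1 of 100 cells lay between the 10-cell libraries and the other 3 lay above all of these. Without that library 25 of the 79 fell (31.6%, against 0.995% of all genes) and RPL28 rose (1.27%, against 0.938%). The median was -0.18 beside 0.0042.

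RPL10A, of the large subunit, was at 192 and 211 CPM with 10 cells, 249 in replicate 1 of 100 cells and 315, 306 and 308 in the other 3 (-0.62 ± 0.05, adjusted p = 0.00119, and -0.55 ± 0.09, adjusted p = 0.102, with all 6 libraries). RPL15 was at 378 and 359.5, 398, and 541, 526 and 522 CPM (-0.52 ± 0.04, adjusted p = 0.00119). RPL38, at 256 and 258, 233, and 362, 346 and 351 CPM, and RPL24, at 296 and 277, 285, and 402, 375 and 403 CPM, fell by 0.46 each. The most abundant member did not follow. RPL4 was at 2239.5 and 2335 CPM with 10 cells and between 2172 and 2280.2 with more (0.04 ± 0.04, adjusted p = 0.703). RPL28 was at 564 and 547 CPM against 488, 477 and 491, and at 539 in the library left out.

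The nuclear genes of oxidative phosphorylation, the subunits of the mitochondrial respiratory chain and ATP synthase, were close to the ribosomal proteins. Their median was -0.14 with all 6 libraries, where 65 of 76 genes were below 0 and none passed, and -0.18 without replicate 1 of 100 cells, where 8 fell (10.5%, against 0.995% of all genes). NDUFA4, a subunit of cytochrome c oxidase, was at 31.2 and 36.1 CPM with 10 cells, 30.7 in replicate 1 of 100 cells and 54.1, 52.2 and 55.4 in the other 3 (-0.68 ± 0.09, adjusted p = 0.00986). NDUFA13, of complex I, was at 53.7 and 46.9 CPM and between 68.1 and 72.7 in all 4 larger libraries. SDHD, a membrane anchor of complex II, fell by 0.61 ± 0.12. The more abundant ATP5B, the catalytic subunit of ATP synthase, was at 523 and 555 CPM against 519 to 560.4 (-0.02 ± 0.05, adjusted p = 0.901). No gene of the mitochondrial genome is among the gene models.

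Mitochondrial ribosomal proteins (77 tested) had a median of -0.083, and without replicate 1 of 100 cells 3 fell (3.9%, against 0.995% of all genes) and 1, MRPL4, rose (1.3%, against 0.938%). MRPL4 was at 114 and 112 CPM with 10 cells and between 84.5 and 89.5 in all 4 others. Proteasome subunits (37 tested), the parts of the main protein-degrading complex, had a median of -0.11, and 4 fell without that library (10.8%, against 0.995% of all genes), PSMA3, PSMA5, PSMA7 and PSMC6. PSMA3 was at 94.2 and 96.8 CPM with 10 cells, 111 in replicate 1 of 100 cells and 125, 116 and 128 in the others. Together these 4 lists held 40 of the 157 genes that fell. Under 20 alternative settings, including other scalings and each library left out, the medians of the 4 lists with all libraries stayed below 0, from -0.18 to -0.086 for cytosolic ribosomal proteins and from -0.21 to -0.079 for oxidative phosphorylation.

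Lists with medians above 0 were fewer. The 481 zinc finger genes with ZNF symbols, DNA-binding proteins mostly at low levels, had a median of 0.078. Their summed level was higher in both 10-cell libraries (14799 and 14923 CPM) than in the other 4 (14516, 14034, 14405 and 14116 CPM). For 10 minus 1000 cells their median log2 difference was 0.026 in replicate 1 and 0.071 in replicate 2. Between the larger libraries it was 0.030 for replicate 1 minus replicate 2 of 1000 cells and -0.042 for replicate 2 of 100 cells minus replicate 1 of 1000 cells. None of them passed, and without replicate 1 of 100 cells only ZNF324 did, which fell (0.208%, against 0.995% of all genes). Collagen and laminin genes (33 tested), which encode the extracellular scaffold, had a median of 0.14 and summed to 1728 and 1734 CPM against 1681, 1586, 1613 and 1624. Of these COL27A1 alone rose without replicate 1 of 100 cells (3.12%, against 0.938% of all genes). It was at 119 and 127 CPM against 95.0, 94.9 and 103, with 126 in the library left out. Neither sum can pass a permutation test, since 0.0667 is the smallest p.

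**Figure D4:**
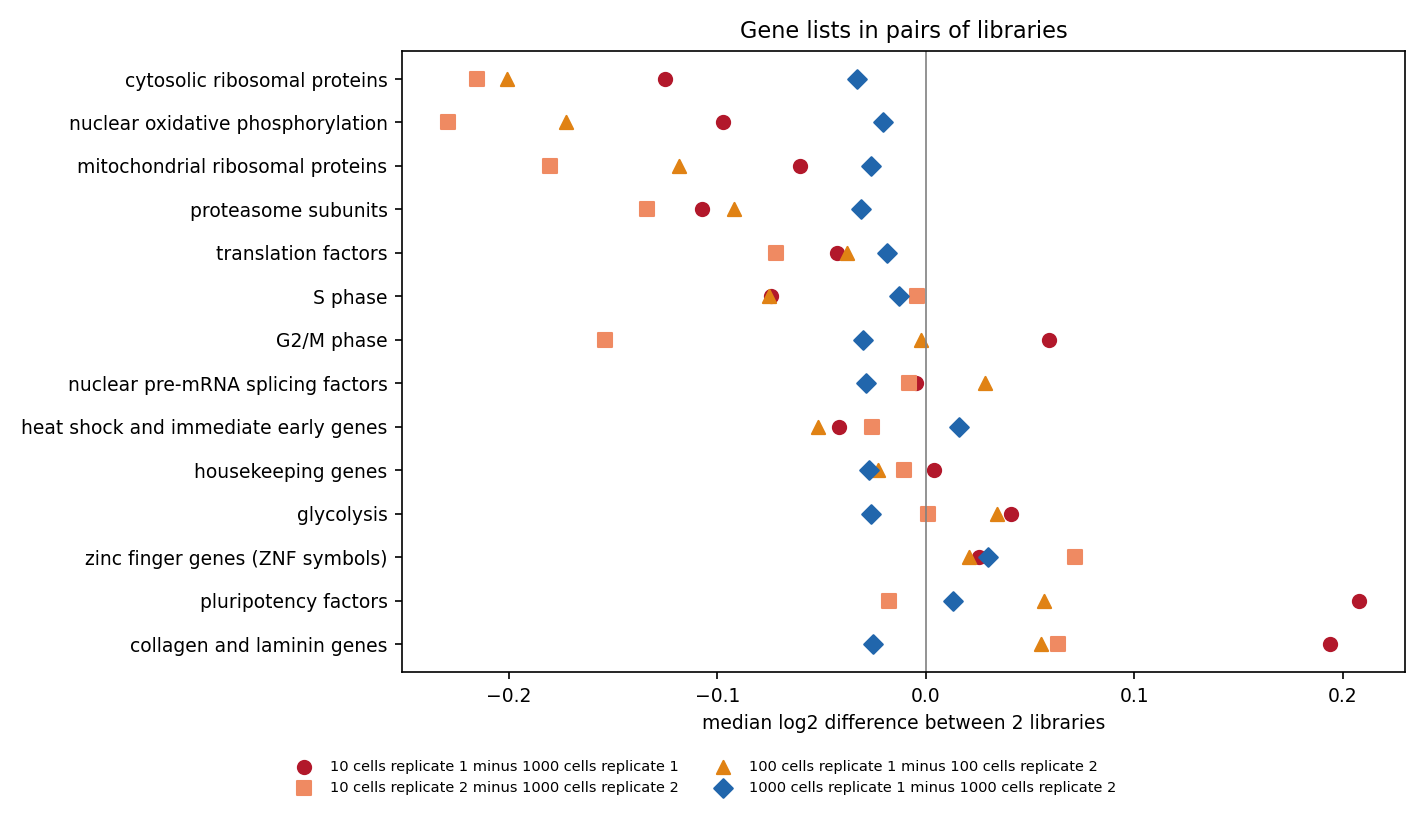
Median log2 difference over the genes of 14 lists (x axis) between 2 libraries, for the pairs 10 minus 1000 cells by replicate, 100 cells replicate 1 minus replicate 2, and 1000 cells replicate 1 minus replicate 2. The first 3 pairs share no library, and in each of them cytosolic ribosomal proteins, oxidative phosphorylation, mitochondrial ribosomal proteins and proteasome subunits lie below -0.06, whereas the 1000-cell pair lies between -0.021 and -0.033.

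Because the comparisons above share libraries, the lists were also measured in 3 pairs that share none, taken by replicate number as a label only. The pairs were chosen after seeing the data and use the libraries of those comparisons. For cytosolic ribosomal proteins the median log2 difference was -0.13 for 10 minus 1000 cells in replicate 1, -0.22 in replicate 2, and -0.20 for replicate 1 minus replicate 2 of 100 cells. The oxidative phosphorylation genes gave -0.097, -0.23 and -0.17. Within the 1000-cell pair, which shares its libraries with the pairs of 10 and 1000 cells, the medians were -0.033 and -0.021. Replicate 2 of 100 cells minus replicate 1 of 1000 cells, which shares libraries with the pairs above, gave 0.047 for both lists. The medians of the 100-cell pair, whose libraries have the same cell number, lay between those of the pairs of 10 and 1000 cells for these lists. For proteasome subunits it was nearer 0, at -0.092 against -0.11 and -0.13.

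The short structured RNAs, nuclear and cytoplasmic RNAs that work without being translated, summed to 45009 and 43760 CPM with 10 cells and to 42403, 40103, 40338 and 39245 with more, without overlap. Over the 292 tested the median was -0.0057. For 10 minus 1000 cells their median log2 difference was 0.11 in replicate 1 and -0.11 in replicate 2, so the replicates went opposite ways. Within the 1000-cell pair it was 0.11. The most abundant member was RN7SL1. RN7SL1, the RNA core of the particle that docks ribosomes on the endoplasmic reticulum, was at 24983 and 25847 CPM with 10 cells, 24528 in replicate 1 of 100 cells and 22125, 22525 and 21750.5 in the other 3 (0.20 ± 0.02 without that replicate, adjusted p = 0.00686). RN7SK, which holds back transcription elongation, was at 7168 and 6567 CPM against 6807 to 6965, and RPPH1, the RNA of RNase P, at 3494 and 3133 against 2888 to 3111 CPM (0.15 ± 0.05, adjusted p = 0.256). The long nuclear RNA MALAT1 was at 18238 and 17919 CPM with 10 cells, with replicate 1 of 100 cells the highest, at 20487 CPM.

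Without replicate 1 of 100 cells, 0.938% of all genes rose and 0.995% fell, and the shares of the cell-cycle and stress lists were 1.85% each way for G2 and M phase, 2.33% lower for S phase, 1.89% higher and 3.77% lower for histones, and 7.41% higher for heat shock and immediate early genes. Of 54 genes of G2 and M phase none passed with all libraries, and without replicate 1 of 100 cells MKI67 rose (2344 and 2164 CPM against 1934, 1852 and 1868) and CDK1, the kinase that drives mitosis, fell (119 and 101 against 149.6, 134 and 151). The list median was 0.059 for 10 minus 1000 cells in replicate 1 and -0.15 in replicate 2, so the 10-cell libraries lay on both sides. Of 43 genes of S phase DSCC1 alone fell without that library. Of 53 histone genes tested there, HIST1H2BF rose and HIST1H3C and HIST1H4B fell. Of 27 heat shock and immediate early genes, EGR1 (96.6 and 113 CPM against 79.4, 80.3 and 75.4, with 112 in the library left out) and HSPB1 (304 and 302 against 249.7, 261 and 258) rose in the same comparison, while HSP90AA1, the most abundant of the list, was between 4394 and 4729.7 CPM in all 6.

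None of the p53 target (20), hypoxia (19), interferon (15), glycolysis (20) or small nucleolar RNA host genes (22) tested passed with or without replicate 1 of 100 cells, and their medians with all libraries were between -0.046 and 0.021. In lists of this size a count of 0 is near what the 1.93% over all genes gives. Without replicate 1 of 100 cells, IDI1 of the cholesterol synthesis genes (25) fell (4%), as did PSAT1 of the stress response genes (28, 3.57%). EEF1B2 of the translation factors (34) also fell (2.94%), where 0.995% of all genes did. Of the splicing factors (36) SRSF1 and HNRNPUL1 rose without that library (5.56%, against 0.938% of all genes). Antisense transcripts (472 tested) had a median of -0.015, and 3 of the 461 tested without replicate 1 of 100 cells rose (0.651%, below the 0.938% of all genes), and the 10 long nuclear RNAs tested gave no call.

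The study's qPCR targets were the transcripts of ACTB, TBP and TBX5 and the genomic DNA of MYC, and transcripts of all were detected here. ACTB, a cytoskeletal actin, was at 5020.1 and 5045 CPM with 10 cells and at 4815, 4484, 4502 and 4546 with more, and rose by 0.16 ± 0.02 without replicate 1 of 100 cells (adjusted p = 0.0178) but did not pass with it (0.13 ± 0.04, adjusted p = 0.22). TBP, a general transcription factor, was at 43.6 and 47.7 CPM against 41.2 to 46.4. TBX5, a developmental transcription factor, was at 51.6 and 52.9 against 41.5 to 52.9 CPM, and MYC at 983 and 821 against 754 to 989. For TBP, TBX5 and MYC the groups overlapped. Of 34 housekeeping genes the median was 0.014. Their summed level was 20884 and 20889 CPM with 10 cells and between 19756 and 20781 with more, without overlap. POLR2A and ACTB rose without replicate 1 of 100 cells (5.88%, against 0.938% of all genes) and VPS29 fell (2.94%, against 0.995%). GAPDH was at 1949.7 and 1970.4 CPM against 1804 to 1993.

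The fold changes of the 10-cell libraries were ordered by the base composition of the transcripts, which neither the groups nor the lists used. Among 9766 genes at 10 CPM or more, the median log2 fold change was -0.065 for those under 40% GC (1176 genes) and 0.089 for those of 60% or more (1208 genes), with the classes between them in order. Of these genes 69.5% and 28.9% lay below 0. Without replicate 1 of 100 cells the medians were -0.081 and 0.11, with 2 genes higher and 33 lower under 40%, and 46 higher and 4 lower at 60% or more. At 40 to 45% (2487 genes) 6 were higher and 58 lower, and at 55 to 60% (1454 genes) 35 were higher and 5 lower. The middle classes were mixed, with 19 higher and 31 lower at 45 to 50% and 18 higher and 19 lower at 50 to 55%. Of all genes, 0.938% rose and 0.995% fell in that comparison. Of some genes named above, TUBB4A (63.1% GC), RMRP and PTMS (64.1%) are on the GC-rich side, NDUFA4 (40.0%) on the other, and RPS27 (51.1%) near the middle. The cytosolic ribosomal proteins had a median of 49.9% GC.

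Length gave an order only above 500 bases. Genes at 10 CPM or more with models under 200 bases (50 genes) had a median of 0.0049 and those of 200 to 500 bases (85 genes) one of -0.072. Genes at 10 CPM or more with models of 500 to 1000 bases (318 genes) had a median of -0.12. The median was -0.13 for the cytosolic ribosomal proteins, whose median length was 880 bases, and -0.14 for the oxidative phosphorylation genes (955 bases). List members with models of that length count in both medians, so this closeness is partly built in. Genes at 10 CPM or more of 8000 bases or more (929 genes) had a median of 0.034. Without replicate 1 of 100 cells the medians of these length classes were -0.15, with 2 genes higher and 25 lower, and 0.051, with 26 higher and 2 lower. Of all genes, 0.938% rose and 0.995% fell there. The zinc finger genes, at a median of 44.7% GC and 3640 bases, had a median fold change above 0 although genes of that GC content lay below it.

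**Figure D5:**
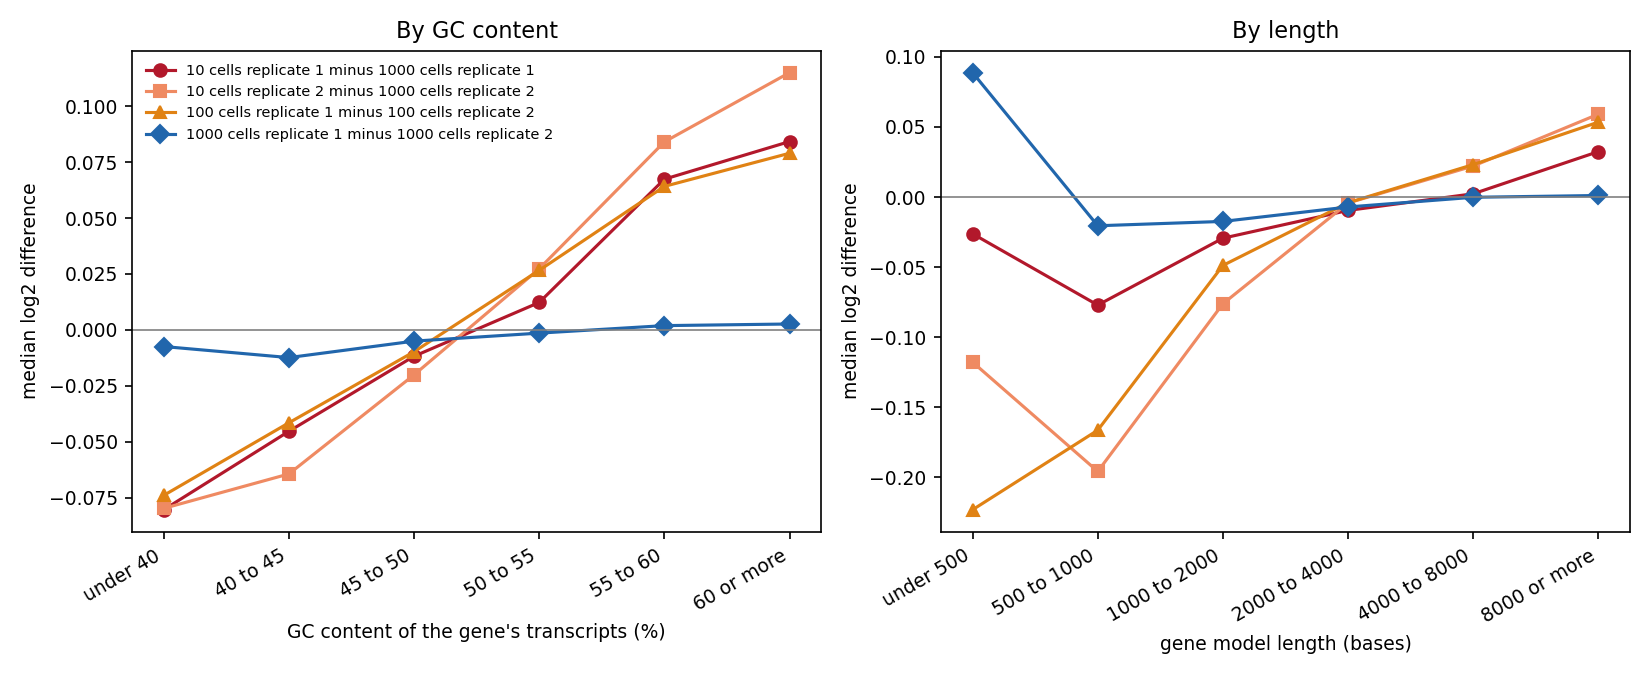
Median log2 difference between 2 libraries (y axis) of genes at 10 CPM or more, by GC content of their transcripts (left) and by gene model length (right), for 4 pairs of libraries. In the 3 pairs that share no library the median rises from between -0.074 and -0.080 under 40% GC to between 0.079 and 0.12 at 60% or more. The 1000-cell pair stays between -0.012 and 0.0026 across GC and lies between -0.021 and 0.089 across length, highest under 500 bases.

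The same order appeared in each of the 3 pairs that share no library with each other. Their libraries are those of the comparison above and the pairs were chosen after seeing the data, so they are no independent repeat. The 1000-cell pair shares its libraries with the pairs of 10 and 1000 cells. Under 40% GC the median was -0.080 for 10 minus 1000 cells in both replicates and -0.074 for replicate 1 minus replicate 2 of 100 cells. At 60% or more it was 0.084, 0.12 and 0.079. The 1000-cell pair gave -0.0074 and 0.0026, and replicate 2 of 100 cells minus replicate 1 of 1000 cells gave 0.012 and -0.020. For 500 to 1000 bases the medians of the 3 pairs were -0.077, -0.20 and -0.17. The 1000-cell pair gave -0.021 there, and replicate 2 of 100 cells minus replicate 1 of 1000 cells gave 0.042. Under 500 bases (135 genes) the medians of the 3 pairs were -0.026, -0.12 and -0.22. There the 1000-cell pair was not near 0, at 0.089. The order by GC held in short and long genes, with the short ones lower at both ends. With models under 2000 bases, genes under 40% GC (117 genes) had medians of -0.092, -0.18 and -0.18, and with longer models (1059 genes) of -0.080, -0.067 and -0.063. With models under 2000 bases, genes of 60% GC or more (296 genes) had medians of 0.042, 0.023 and -0.00019, and with longer models (912 genes) of 0.097, 0.14 and 0.11. Genes are not replicates, and these medians describe the libraries. The part of GC content and length in the calls was not tested.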

How the data were processed

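The 6 RNA-seq libraries of 10, 100 and 1000 sorted HAP1 cells were used. Per the labels and methods, the authors used Trim Galore 0.6.7 for trimming and HISAT2 2.2.1 for alignment (hg38), and deposited raw counts per gene from featureCounts (Subread 2.0.6, strand setting 2) for 26485 gene models. Reads mapping to several places were left out, so genes with near-identical copies are uncertain. The annotation release is not given in the sources used here. The single-cell libraries were not used here.

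Counts were tested with edgeR 4.0.16 (R 4.3.3; TMM, filterByExpr, estimateDisp, glmQLFit with legacy=FALSE and robust=FALSE, glmQLFTest) with only the libraries of each comparison, and adjusted by Benjamini-Hochberg (threshold 0.05). Log2 fold changes are 10 cells minus more cells. Their SE is the absolute fold change divided by the square root of the quasi-likelihood F, so it restates the test and is no separate estimate. CPM used TMM-scaled totals, and log2 CPM a prior count of 2. DESeq2 1.42.0 and limma 3.58.1 were alternatives. The script was tested on simulated data. GC content (15332 of 15926 tested genes) came from GENCODE transcripts of GRCh38. No table of RefSeq sequences was used. Totals are in the report, and precision is limited by 2 libraries a group.

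Members and lists were chosen with earlier results of these data known. Named were the called genes of largest change in each direction, overall and at 100 CPM or more, filled up by p, the genes differing most between the 10-cell libraries, and the most abundant or called members of each list. Pairs of libraries sharing none, weighted fits and several of the leave-one-out fits were chosen after seeing the data.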

Additional observations from a re-analysis of the deposited data

Results flagged for a closer look

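In 18 of 81 sets of the 4 libraries of 100 and 1000 cells, 1 library lay far from the other 3 by Dixon's test on the gap over the range, and in all 18 it was replicate 1 of 100 cells. Chance gives about 1 in 20 for sets chosen without regard to that library, but many of these genes were named because they were called only once it was left out, so that rate does not apply to them. The values are given without explanation. The share of counts in the 100 most abundant genes was 19.8% there and between 19.0% and 19.1% in the others, and 16428 genes were detected after thinning against 18232 to 18378. Higher than the other 3 were FAM65A (150.1 CPM), PPDPF (153), PTMS (208), ATN1 (289), POLR2A (867), EGR1 (112), SRSF1 (774), HNRNPUL1 (556), SOX2 (943), MYC (989) and the sum of the pluripotency factors (1940.3). Lower were RPL10A (249 CPM), RPL15 (398), RPL38 (233), NDUFA4 (30.7) and the sum of the mitochondrial ribosomal proteins (4224).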

How the results depend on the processing

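Genes higher and lower with 10 cells against 100 and 1000 cells numbered 2 and 1. DESeq2 called 111 and 155, a fit with 3 cell numbers 4 and 1, no filter 3 and 2, the trend 0 and 0, limma-voom with library weights 37 and 16 and with group weights 2 and 0; leaving out each library gave 0 to 148 and 0 to 157, the highest without replicate 1 of 100 cells. Other settings gave 2 and 1. Without that replicate (148 and 157) DESeq2 called 594 and 646, a filter at 10 CPM 242 and 235, the older edgeR setting 78 and 84 and group weights 94 and 84; leaving out a further library gave 2 to 2440 and 3 to 2448. The highest counts arise without a 10-cell library, when the lone one is assumed to vary like the 3 larger libraries. Against 100 cells (4 and 1) DESeq2 called 7 and 2, and leaving out a library gave 1 to 12 and 3 to 5. Against 1000 cells (2 and 3) DESeq2 called 94 and 102, the older setting 0 and 0, and leaving out a library 0 to 2065 and 1 to 2169. Between 100 and 1000 cells (0 and 0) DESeq2 called 1 and 0, and leaving out a library gave 0 to 2331 and 0 to 2410. The cause of these differences was not tested. The detection difference of -1509.5 genes was between -1993.8 and -1273.8 with a library left out.

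A replicate block gave 2 and 1 in the main comparison, 107 and 112 without replicate 1 of 100 cells, 4 and 1 against 100 cells, 15 and 13 against 1000 cells, and 6 and 11 between 100 and 1000 cells. Deviations of same-numbered libraries correlated at -0.016 (10 and 100 cells), 0.021 (10 and 1000) and 0.011 (100 and 1000), so the numbers were not taken as pairing.

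Some fold changes near 0 turned sign. Over the 6 libraries left out in turn, TBP was between -0.013 and 0.12, MYC between -0.0058 and 0.25, POU5F1 between -0.081 and 0.13 (-0.013 without replicate 2 of 100 cells), SALL4 between -0.88 and 0.36 and LIN28B between -0.074 and 0.11, with each extreme at 1 of the 10-cell libraries. ABL1 was at 0.0093 in the trend. With replicate 1 of 100 cells left out throughout, SALL4 was between -0.88 and 0.36, LIN28B between -0.086 and 0.10 (-0.00201 with the block) and ABL1 between -0.080 and 0.015 (0.0011 without replicate 2 of 10 cells and 0.0076 without replicate 2 of 1000 cells). With 2 libraries of 10 cells, differences within their spread were not detectable.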
